A study of Homo sapiens with 6 samples.

Results

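The genes described are 10 of the 51537 rows of the deposited table, taken by symbol: YAP1, WWTR1, TEAD1, TEAD4, LATS1, AMOTL2, CTGF, CYR61, ANKRD1 and AJUBA. All 10 were found on 1 row each, with CTGF and CYR61 under those names, and all 10 passed the filter on low values. Poly(A) RNA was sequenced from H3122, a human lung adenocarcinoma line known for an EML4-ALK fusion, in 3 control libraries, and from H3122CR in 3 libraries. H3122CR cells are H3122 cells made resistant to crizotinib, a drug that blocks ALK and MET kinases, by raising the drug stepwise from 0.1 to 10 µM. Both groups are the same line, and the labels list no drug for the control cells. The labels do not say whether the resistant cells were 1 clone or whether drug, which was kept in the medium during selection, was still present at harvest. They also do not call replicates separate cultures, so each p-value reflects spread among 6 libraries that may be technical. The title of the series names a mechanism of crizotinib resistance as its subject, and the comparison here asks how transcripts of the Hippo pathway differed between resistant and control cells.

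The Hippo pathway is a kinase cascade in which STK3 and STK4 (MST kinases) activate LATS1 and LATS2, and LATS kinases phosphorylate the coactivators YAP1 and WWTR1 (TAZ) so that they stay in the cytoplasm. When not held back, YAP1 and WWTR1 enter the nucleus and bind TEAD transcription factors, which switch on genes such as CTGF, CYR61 and ANKRD1. The cascade is controlled largely by phosphorylation and location, which transcript levels do not measure. YAP is known as a survival factor in lung cancer cells treated with kinase inhibitors.

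TEAD factors recognise the letters GGAATG, which read CATTCC on the other strand. The bases before the start site of 3 target genes are shown because these genes are common readouts of YAP and TEAD, with both forms of the motif in capitals. The sequences are from RefSeq, build GRCh38.p14, read 5′ to 3′ on the gene's strand, and end 1 base before the start site.
CTGF: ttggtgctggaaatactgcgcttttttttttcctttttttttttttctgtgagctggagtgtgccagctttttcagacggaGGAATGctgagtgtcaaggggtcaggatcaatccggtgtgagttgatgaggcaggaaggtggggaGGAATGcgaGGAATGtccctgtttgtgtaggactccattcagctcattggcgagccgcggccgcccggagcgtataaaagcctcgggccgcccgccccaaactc
ANKRD1: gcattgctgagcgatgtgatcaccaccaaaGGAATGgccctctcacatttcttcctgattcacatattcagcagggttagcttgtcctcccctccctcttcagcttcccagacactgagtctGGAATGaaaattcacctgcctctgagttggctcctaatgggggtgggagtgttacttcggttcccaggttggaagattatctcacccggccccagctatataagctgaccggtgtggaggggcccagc
AMOTL2: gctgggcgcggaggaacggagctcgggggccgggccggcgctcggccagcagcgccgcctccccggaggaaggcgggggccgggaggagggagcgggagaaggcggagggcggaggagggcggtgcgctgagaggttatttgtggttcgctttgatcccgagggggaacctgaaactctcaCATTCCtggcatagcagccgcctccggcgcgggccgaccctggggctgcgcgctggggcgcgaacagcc
The CTGF stretch is chr6:131951373-131951622 on the minus strand and holds 3 motifs, whose first bases lie at -169, -104 and -95 from the start. The ANKRD1 stretch is chr10:90921088-90921337 on the minus strand and holds 2, at -220 and -128. The AMOTL2 stretch is chr3:134374448-134374697 on the minus strand and holds 1, at -69 in the reverse form; it is 1 of 2 AMOTL2 windows in the RefSeq table, and the other window has none. Of the 10 genes, 7 had a window, while TEAD1, TEAD4 and CYR61 had none. In any of their windows, 5 of these 7 held the motif on either strand within 250 bases, against 14.3% of 27305 genes in the table. YAP1 and AJUBA are the others of the 5, AJUBA with the motif in 1 of its 2 windows. The 10 genes include known YAP and TEAD targets, so this comparison is not a test of enrichment. At least 2 motifs in 1 window were found in 322 of the 27305 genes (1.18%), and 3 or more in 29. No 2 matches in the sequences shown overlapped. A match describes the letters and is not a measured binding site.

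Levels are in TPM, a unit that scales read counts by gene length and by the library total and can be compared between genes. YAP1, at 128 ± 5.18 TPM in control libraries (SD, n = 3), was the most abundant of the 10. AMOTL2 followed at 104 ± 2.47 TPM, then TEAD4 at 56.2 ± 2.64 TPM. TEAD1 (37.9 ± 1.91 TPM) and AJUBA (37.3 ± 0.915 TPM) overlapped in the control libraries, as did WWTR1 (29.1 ± 0.560 TPM) and CYR61 (28.7 ± 1.19 TPM). LATS1 stood lower at 10.3 to 11.5 TPM. CTGF (2.46 ± 0.645 TPM) and ANKRD1 (2.12 ± 0.447 TPM) were lowest and overlapped each other. In resistant libraries the order was the same except that AJUBA lay above TEAD1, without overlap between these 2 genes.

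**Figure D1:**
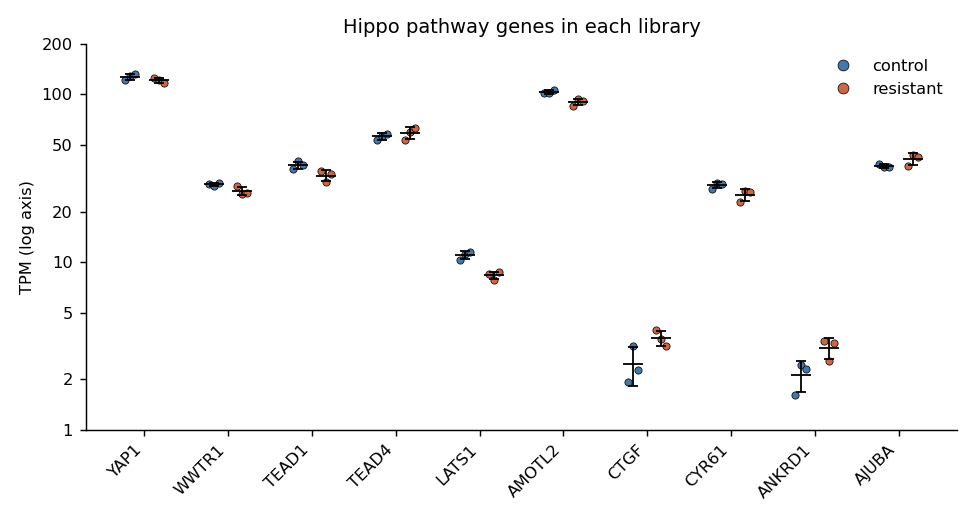
TPM of the 10 genes in each library, on a log axis. Points are libraries, 3 control and 3 resistant per gene; horizontal marks are means and error bars are SD. YAP1 lies between 117 and 133 TPM in all 6 libraries, while CTGF and ANKRD1 lie below 4 TPM.

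All 10 genes were within 0.5 of 0 on the log2(TPM + 1) scale, as were 74.5% of the 16077 tested genes. The largest absolute estimate among the 10 was 0.40, for CTGF. The added 1 TPM compresses low genes: with a pseudocount of 0.1, CTGF was at 0.52 and ANKRD1 at 0.53, and in limma-voom both were at 0.58. LATS1, AMOTL2 and TEAD1 fell, and 7 genes did not pass. Thus 3 of 10 (30.0%) were called by limma at an adjusted p below 0.05, where 48.6% of all tested genes were called. All 3 were lower, with 24.7% of all tested genes called lower and 24.0% called higher. None of the 10 was called higher by limma; 2 were higher at an unadjusted p below 0.05 (CTGF and ANKRD1), and limma-voom on rebuilt reads called 3 higher (these 2 and AJUBA) and 3 lower. The median log2 change of the 10 was -0.10, beside -0.0044 over all tested genes, and the median absolute change was 0.19 beside 0.27. The groups did not overlap for 6 of the 10 genes, against 57.9% of all tested genes. In bulk RNA, fewer cells of a type and less RNA per cell cannot be told apart.

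**Figure D2:**
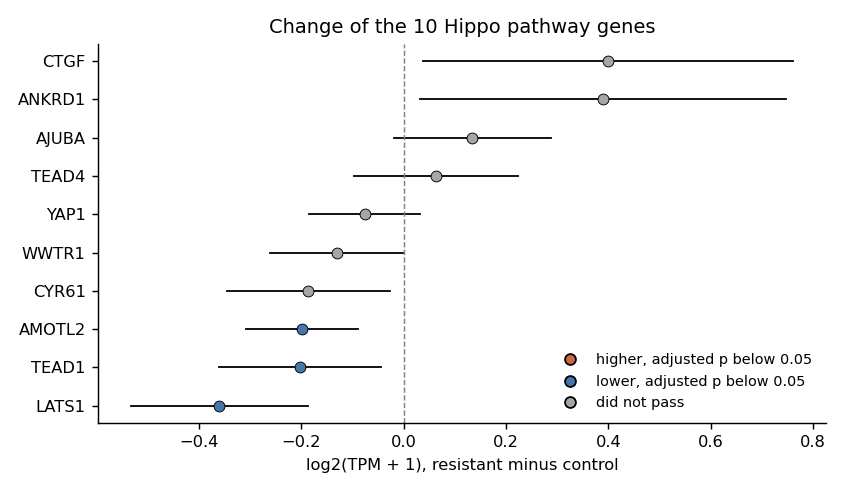
Difference in log2(TPM + 1) between resistant and control libraries for the 10 genes. Points are limma estimates, lines are 95% confidence intervals, and colour shows the call; the 3 blue points are LATS1 at -0.36, TEAD1 at -0.20 and AMOTL2 at -0.20.

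Among the coactivators, YAP1 (ENSG00000137693, chromosome 11, 102110461 to 102233423) was at 122, 129 and 133 TPM in the control and 125, 122 and 117 TPM in the resistant libraries. The groups overlapped, and the log2 difference was -0.08 ± 0.05 (SE; 95% interval -0.18 to 0.03; adjusted p = 0.215). Each library held 6879 to 8764 YAP1 reads, and with 1 library left out the YAP1 difference ran from -0.11 to -0.05. WWTR1 (ENSG00000018408, chromosome 3, 149517235 to 149736714), the paralogue of YAP1, was at 29.04, 28.6 and 29.7 TPM in control and 28.4, 25.4 and 25.8 TPM in resistant libraries. All 3 resistant values were below the control values by a small margin, and the difference of -0.13 ± 0.06 did not pass (95% interval -0.26 to -0.0007; adjusted p = 0.0889). It passed without resistant replicate 1 (-0.18, adjusted p = 0.0284). The TPM ratio of YAP1 to WWTR1 was 4.39 ± 0.156 in control and 4.58 ± 0.198 in resistant libraries, so YAP1 was the main coactivator transcript in both groups.

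Of the TEAD factors among the 10 genes, TEAD1 (ENSG00000187079, chromosome 11, 12674591 to 12944483) was at 36.0, 39.8 and 37.8 TPM in control and 35.0, 30.1 and 33.4 TPM in resistant libraries. The groups did not overlap, but control replicate 1 and resistant replicate 1 were close. TEAD1 fell by 0.20 ± 0.07 on the log2 scale (95% interval -0.36 to -0.04; adjusted p = 0.0409), and this call was lost without control replicate 2 (adjusted p = 0.117), control replicate 3 (0.0959), resistant replicate 2 (0.114) or resistant replicate 3 (0.0761). TEAD4 (ENSG00000197905, chromosome 12, 2959330 to 3040673) was at 53.3, 56.9 and 58.5 TPM in control and 53.6, 59.6 and 63.4 TPM in resistant libraries. Its groups overlapped, with a difference of 0.06 ± 0.07 (95% interval -0.10 to 0.22; adjusted p = 0.482). The TEAD4 value was 0.0096 without resistant replicate 3 and 0.13 without resistant replicate 1. The TPM ratio of TEAD4 to TEAD1 was 1.49 ± 0.0591 in control and 1.81 ± 0.240 in resistant libraries, and resistant replicate 1, at 1.53, lay within the control range.

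TEAD3 was the most abundant of the family, at 98.6 ± 3.47 and 100.8 ± 3.62 TPM in control and resistant cells. TEAD2 was at 82.8, 85.7 and 86.5 TPM in control and 75.2, 78.0 and 75.4 TPM in resistant libraries. TEAD2 fell by 0.16 ± 0.04 on the log2 scale (adjusted p = 0.0144), a call lost without control replicate 2 (adjusted p = 0.0534), control replicate 3 (0.0664) or resistant replicate 3 (0.0582). Summed over TEAD1 to TEAD4, the level was 267 to 284 TPM in control and 262 to 273 TPM in resistant libraries.

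VGLL proteins bind TEAD in place of YAP1 and WWTR1. VGLL1 was the most abundant transcript of the TEAD, coactivator and VGLL list, with 388 ± 12.9 TPM in control and 346 ± 16.6 TPM in resistant cells, above YAP1 in each library. VGLL1 fell by 0.16 ± 0.05 on the log2 scale (adjusted p = 0.0245); the call was lost without control replicate 2 (adjusted p = 0.0801), control replicate 3 (0.0646), resistant replicate 1 (0.0541) or resistant replicate 3 (0.0696). VGLL4 was at 16.8 ± 0.546 and 15.6 ± 0.730 TPM and VGLL3 at 5.58 ± 0.551 and 4.54 ± 0.372 TPM, and neither passed. VGLL3 passed without control replicate 1 (adjusted p = 0.0441), with median-ratio scaling (0.0346) and with limma-voom (0.0194). VGLL2 was listed at 0 in all 6 libraries. Over the whole list, 3 of 9 tested genes (33.3%) were called, all lower (TEAD1, TEAD2 and VGLL1), with a median of -0.13, beside 48.6% of all tested genes called and 24.7% called lower. None was called higher by limma, and none was higher at an unadjusted p below 0.05 or by limma-voom. Without control replicate 2, control replicate 3 or resistant replicate 3, limma called 0 of the 9.

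LATS1 (ENSG00000131023, chromosome 6, 149658153 to 149718256), which inactivates YAP1 and WWTR1 by phosphorylation, had the lowest log2 difference of the 10 genes. It was at 10.3, 11.2 and 11.5 TPM in control and 8.49, 7.86 and 8.69 TPM in resistant libraries. Every resistant library lay below every control library, and LATS1 fell by 0.36 ± 0.07 on the log2 scale (95% interval -0.53 to -0.19; adjusted p = 0.00529). The LATS1 call held in all 13 alternatives run, with adjusted p of 5.53e-04 to 0.0277. Its paralogue LATS2, which is also a YAP target, was at 10.2, 10.7 and 10.2 TPM in control and 5.06, 5.32 and 5.12 TPM in resistant libraries. LATS2 fell by 0.88 ± 0.07 on the log2 scale (adjusted p = 5.80e-05). Both LATS genes were thus near 10 to 11 TPM in control cells, while in resistant cells the TPM ratio of LATS1 to LATS2 was 1.62 ± 0.121, from 1.06 ± 0.0586. Their summed level was 20.5 to 21.9 TPM in control and 13.2 to 13.8 TPM in resistant libraries.

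Of the MST kinases above LATS, STK3 was at 9.37, 11 and 10.5 TPM in control and 7.91, 6.78 and 7.14 TPM in resistant libraries, and fell by 0.45 ± 0.09 on the log2 scale (adjusted p = 0.00442). STK4, its paralogue, was higher at 30.3 ± 0.264 and 29.1 ± 1.78 TPM, and its difference of -0.06 ± 0.05 did not pass (95% interval -0.19 to 0.07). The difference between the responses of STK3 and STK4 was not tested.

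AMOTL2 (ENSG00000114019, chromosome 3, 134355874 to 134375479) encodes an angiomotin, a junction protein that binds YAP1, and is itself a YAP target. It was at 102, 102 and 106 TPM in control and 85.7, 93.6 and 90.8 TPM in resistant libraries. The groups did not overlap, and AMOTL2 fell by 0.20 ± 0.05 on the log2 scale (95% interval -0.31 to -0.09; adjusted p = 0.00969). The AMOTL2 call held in all 13 alternatives, with adjusted p of 0.00601 to 0.0453. The other angiomotins moved in opposite directions. AMOT fell from 34.3 ± 0.565 to 24.3 ± 1.08 TPM (log2 -0.48 ± 0.05, adjusted p = 2.18e-04), and AMOTL1 rose from 47.4 ± 0.889 to 58.2 ± 1.82 TPM (log2 0.29 ± 0.04, adjusted p = 0.00122). The TPM ratio of AMOTL1 to AMOT was 1.38 ± 0.0456 in control and 2.40 ± 0.0323 in resistant libraries, while the summed level of the 3 angiomotins was 183 to 188 and 169 to 179 TPM.

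**Figure D3:**
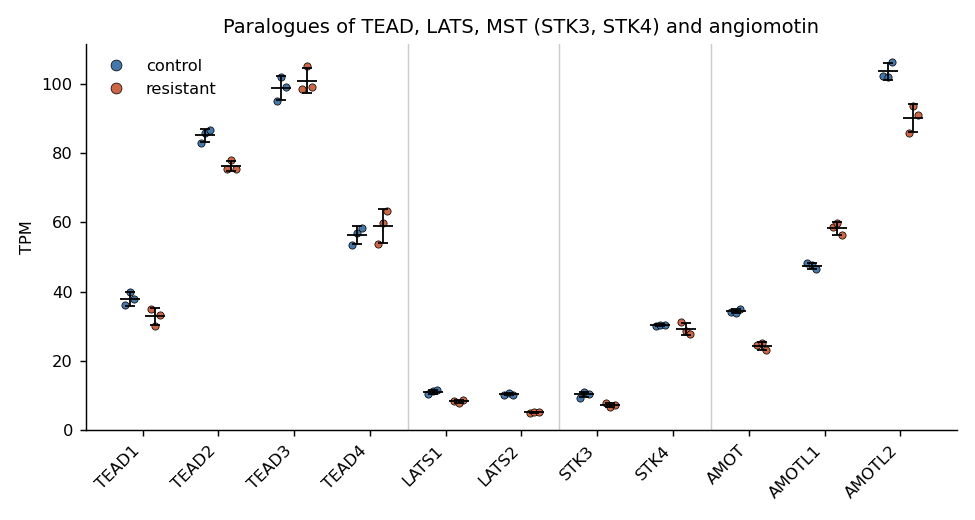
TPM of the TEAD, LATS, MST and angiomotin paralogues in each library, on a linear axis from 0. Points are libraries, horizontal marks means and error bars SD, with n = 3 per group. TEAD1, TEAD2, LATS1, LATS2, STK3, AMOT and AMOTL2 lie lower in resistant cells without overlap, and AMOTL1 lies higher.

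AJUBA (ENSG00000129474, chromosome 14, 22971174 to 22982642) is a LIM protein that binds LATS kinases and restrains them. It was at 38.4, 36.9 and 36.7 TPM in control and 37.2, 43.7 and 42.5 TPM in resistant libraries. Resistant replicate 1 lay within the control range and the other 2 above it, so the difference of 0.13 ± 0.07 did not pass (95% interval -0.02 to 0.29; adjusted p = 0.132). It passed without resistant replicate 1 (0.20, adjusted p = 0.0147) and in limma-voom (0.18, adjusted p = 0.0320). LIMD1, of the same family, was at 15.9 ± 0.479 and 16.1 ± 0.413 TPM, and WTIP was at 0.837 ± 0.0917 and 1.10 ± 0.169 TPM and was not tested. STRIPAK is a phosphatase complex that removes the activating phosphates of the MST kinases. Of 14 tested AJUBA family and STRIPAK genes, 3 fell, 1 rose and 10 did not pass, 28.6% called beside 48.6% of all tested genes. The split depended on the fit: limma-voom called 4 higher and 2 lower, and median-ratio scaling 1 higher and 5 lower. FGFR1OP2 fell from 15.7 ± 1.34 to 11.5 ± 1.81 TPM, while STRN3 rose from 19.3 ± 2.68 to 27.2 ± 2.24 TPM. STRN4 fell from 59.5 ± 1.64 to 54.2 ± 1.28 TPM (adjusted p = 0.0371), a call lost without any 1 of the 6 libraries (adjusted p of 0.0501 to 0.145).

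CTGF (ENSG00000118523, chromosome 6, 131948176 to 131951373), a secreted matrix protein gene and a standard YAP target, was low. It was at 1.93, 3.18 and 2.28 TPM in control and 3.91, 3.49 and 3.18 TPM in resistant libraries, on an estimated 41 to 63 and 72 to 86 reads. Control replicate 2 and resistant replicate 3 were level, so the groups overlapped. The ratio of the mean TPM was 1.43, and the log2(TPM + 1) difference of 0.40 ± 0.15, which understates the change of a gene this low, did not pass (95% interval 0.04 to 0.76; adjusted p = 0.0665). It passed without control replicate 2 (0.54, adjusted p = 0.0194), with median-ratio scaling (0.39, adjusted p = 0.0447) and in limma-voom (0.58, adjusted p = 0.0250).

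ANKRD1 (ENSG00000148677, chromosome 10, 90912096 to 90921276), a nuclear ankyrin repeat protein gene, was near the same level. It was at 1.61, 2.44 and 2.31 TPM in control and 3.39, 2.56 and 3.28 TPM in resistant libraries, on 29 to 48 and 46 to 63 reads. Each resistant value lay above each control value, resistant replicate 2 by a small margin, and the difference of 0.39 ± 0.15 did not pass (95% interval 0.03 to 0.75; adjusted p = 0.0697). The ratio of the mean TPM was 1.45. With limma-voom on rebuilt reads the log2 change of ANKRD1 was 0.58 and passed (adjusted p = 0.0448). CTGF and ANKRD1 were the 2 genes of the 10 with the highest log2 estimates, and also the 2 lowest in level. A link between the motifs shown above and these estimates was not tested.

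CYR61 (ENSG00000142871, chromosome 1, 85580761 to 85583962) encodes a secreted relative of CTGF. It was at 27.4, 29.5 and 29.4 TPM in control and 22.9, 26.6 and 26.1 TPM in resistant libraries, on 529 to 758 reads. All 3 resistant values were lower, and the difference of -0.19 ± 0.07 did not pass (95% interval -0.35 to -0.03; adjusted p = 0.0552). It passed without control replicate 1 (-0.22, adjusted p = 0.0478), without resistant replicate 2 (-0.23, adjusted p = 0.04995) and when only genes at 5 TPM or more were tested (adjusted p = 0.0406). The CYR61 value was -0.12 without resistant replicate 1 (adjusted p = 0.127) and -0.16 in limma-voom (adjusted p = 0.0998). CYR61 was above CTGF by an order of magnitude in level in control cells, and the 2 relatives had estimates of opposite sign.

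Genes of a wider YAP and TEAD target signature changed in both directions. Of its 22 genes 21 were tested, and 8 rose, 8 fell and 5 did not pass. This is 76.2% called, where 48.6% of all tested genes were called. The median log2 change was -0.04. AXL, a receptor tyrosine kinase, was at 7.30, 7.08 and 7.08 TPM in control and 22.6, 21.9 and 21.7 TPM in resistant libraries. AXL rose by 1.502 ± 0.06 on the log2 scale (adjusted p = 3.30e-06). GADD45A, a stress-induced growth arrest gene, rose from 21.7 ± 0.846 to 48.1 ± 1.37 TPM (log2 1.11 ± 0.05), and CCDC80, a secreted matrix protein gene, from 11.7 ± 0.774 to 25.1 ± 2.11 TPM (log2 1.03 ± 0.08). These 3 encode a receptor, a stress protein and a matrix protein. They were the signature genes called with at least a 2-fold change on the log2(TPM + 1) scale, as were 5.98% of all tested genes. The added 1 TPM matters for this cut-off. LATS2 had a ratio of mean TPM of 0.498, and its log2 change was -0.99 with a pseudocount of 0.1.

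To account for the rest of the signature, its other genes are named here after their values were seen. The stress kinase gene NUAK2 (log2 0.58), FJX1 (0.47), the transcription factor gene FOXF2 (0.43), the coagulation starter F3 (0.27) and CRIM1 (0.15) also rose, though the CRIM1 call was lost without any 1 of the 6 libraries (adjusted p of 0.0502 to 0.0710). Besides LATS2 and AMOTL2, NT5E, which makes adenosine at the cell surface, fell from 59.6 ± 1.36 to 36.9 ± 2.41 TPM (log2 -0.68). ASAP1 (-0.39), IGFBP3, which binds insulin-like growth factors (-0.38), the cytokine gene TGFB2 (-0.34), DOCK5 (-0.26) and ARHGEF17 (-0.22) fell. CTGF, ANKRD1, CYR61, MYOF (-0.04) and PTPN14 (-0.05) did not pass, and RBMS3 was listed at 0 in 5 libraries and not tested. MYOF, a membrane repair protein gene, was the most abundant target at 297 ± 9.40 and 289 ± 9.01 TPM.

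**Figure D4:**
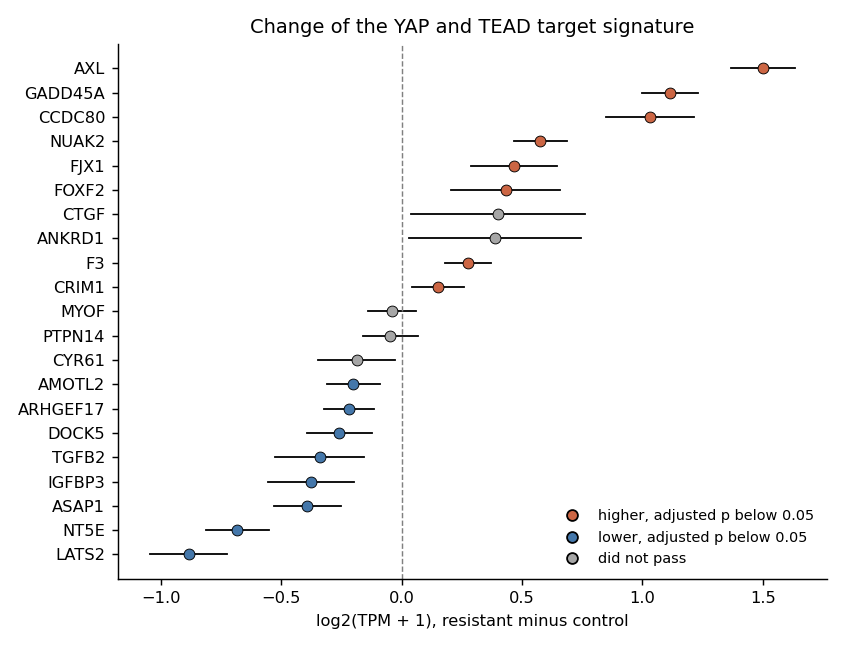
Difference in log2(TPM + 1) between resistant and control libraries for the 21 tested genes of the YAP and TEAD target signature. Points are limma estimates with 95% confidence intervals and colour shows the call; 8 genes are called higher, led by AXL at 1.502, and 8 lower, led by LATS2 at -0.88.

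Of 30 Hippo kinases, adaptors and upstream inhibitors 27 were tested, and 8 rose, 8 fell and 11 did not pass (59.3% called, median -0.06). Over all tested genes 48.6% were called, 24.0% higher and 24.7% lower. The lists share genes, so their counts are not separate. LATS1 and AMOTL2 count here and among the 10 genes, and LATS2, AMOTL2 and PTPN14 count here and in the target signature. TEAD1 counts among the 10 and in the TEAD, coactivator and VGLL list. MAP4K4 and MAP4K2, kinases that can act on LATS beside the MST kinases, rose from 15.4 ± 0.690 to 26.1 ± 1.36 TPM (log2 0.72 ± 0.06) and from 49.6 ± 2.83 to 71.5 ± 0.886 TPM (log2 0.52 ± 0.05). FRMD6, a FERM domain protein of the upstream pathway, fell from 28.6 ± 1.505 to 19.2 ± 1.06 TPM (log2 -0.55 ± 0.06). Others are named after their values were seen. NF2, which encodes the tumour suppressor merlin, rose from 38.6 ± 1.48 to 51.4 ± 1.40 TPM (log2 0.41 ± 0.05, adjusted p = 3.73e-04), as did SAV1, the scaffold of the MST kinases, from 22.6 ± 1.09 to 28.98 ± 1.54 TPM (log2 0.35 ± 0.06). The giant cadherin gene FAT1 rose from 29.7 ± 0.665 to 41.7 ± 1.78 TPM (log2 0.48 ± 0.05), and WWC2 from 9.30 ± 0.261 to 12.5 ± 0.431 TPM. MAP4K5 (log2 0.38) rose and the LATS-related kinase gene STK38L (-0.44) fell. The MAP4K5 call was lost without control replicate 1 (adjusted p = 0.0751). The STK38L call was lost without control replicate 2 (0.0676), control replicate 3 (0.0684) or resistant replicate 2 (0.0620). TAOK2 also fell (-0.13, adjusted p = 0.0345), a call lost without any 1 of the 6 libraries (adjusted p of 0.0534 to 0.119).

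AP-1 factors bind many enhancers together with TEAD. Of 9 tested AP-1 genes, 2 rose, 1 fell and 6 did not pass (33.3% called, median 0.09), beside 48.6% of all tested genes. FOSL1 rose from 38.8 ± 1.23 to 49.9 ± 6.12 TPM (log2 0.35 ± 0.08, adjusted p = 0.0114), whereas FOS fell from 29.7 ± 1.07 to 20.9 ± 0.635 TPM (log2 -0.49 ± 0.05, adjusted p = 2.26e-04). The other gene that rose was ATF3, named after its values were seen, at 0.858 ± 0.173 and 3.31 ± 0.701 TPM (log2 1.21). Without resistant replicate 1, 5 of the 9 genes were called, with JUN among them (log2 0.30, adjusted p = 0.00261).

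Position in the genome moved with some of these values; the genes outside the 10 given here were chosen after their values were seen. LATS2, on chromosome 13, had 13 neighbours with a mean of at least 5 TPM and a start within 2 Mb. Their median log2 change was -0.86, beside -0.88 for LATS2, and 11 of the 13 were called lower. Over chromosome 13 as a whole, 165 other genes at that level had a median of -0.58. CYR61 (-0.19) was in a region of chromosome 1 where 13 of 14 such neighbours were called lower, with a median of -0.67. The median over 1223 genes of chromosome 1 was -0.06. CTGF (0.40) had 8 such neighbours with a median of -0.35, and GADD45A (1.11) had 6 with a median of -0.48. The 3 neighbours of AMOT, on the X chromosome, had a median of -0.57, beside -0.48 for AMOT and -0.33 over 352 genes of that chromosome. LATS1 (-0.36) had 19 neighbours with a median of -0.15, AMOTL2 (-0.20) had 13 with a median of -0.30, and the 4 neighbours of YAP1 (-0.08) had a median of -0.24. For WWTR1 (-0.13), TEAD1 (-0.20) and TEAD4 (0.06) the medians were -0.07, -0.08 and 0.05. For AJUBA (0.13) and ANKRD1 (0.39) they were -0.01 and -0.12. SAV1 (0.35) and MAP4K5 (0.38), which are neighbours of each other on chromosome 14, had medians of 0.26 and 0.27. NUAK2 (0.58) had 37 neighbours with a median of 0.28, of which 21 were called higher. AXL (1.502) had 56 with a median of 0.05. The part of position in these results was not tested.

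**Figure D5:**
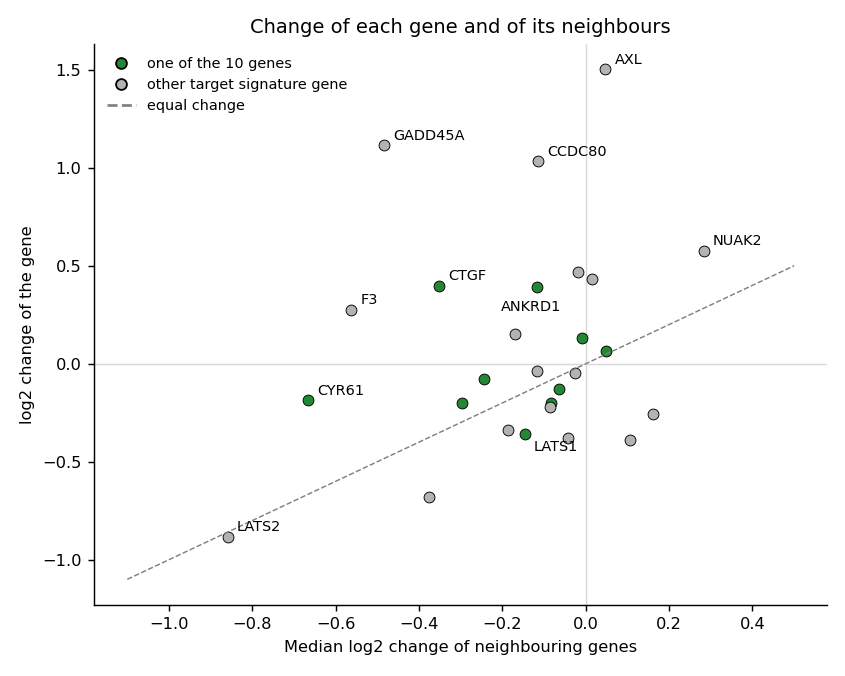
log2 change of each gene (y axis) against the median log2 change of tested genes that start within 2 Mb and have a mean of at least 5 TPM (x axis), for the 10 genes and the tested target signature genes with at least 3 such neighbours. Green points are among the 10 genes, grey points are other target signature genes, and the dashed line marks equal change; LATS2 lies close to the line at -0.88 against -0.86, while CTGF, CYR61, F3 and GADD45A lie above it.

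The libraries had an estimated 29856927 to 36695580 reads. Epithelial keratins were abundant, and the summed level of 11 epithelial and lung adenocarcinoma markers was 17534 to 18060 TPM in control and 18219 to 19540 TPM in resistant libraries. Single markers went both ways. MUC1 (log2 -0.63, adjusted p = 1.21e-04) and EPCAM (-0.36, adjusted p = 0.00186) fell. CDH1 (0.36, adjusted p = 3.68e-04) and KRT19 (0.34, adjusted p = 3.60e-04) rose. CLDN4 (0.15) also rose, with an adjusted p of 0.0494 that lies close to the cut-off, and KRT7, KRT8, KRT18 and NAPSA did not pass. The lung lineage markers NKX2-1 and SFTPB were below 1 TPM in all 6 libraries. Of 11 fibroblast markers 10 were below 1 TPM in all libraries, with DCN and LUM at 0. Their summed level was 4.40 to 4.99 TPM in control and 14.4 to 15.8 TPM in resistant libraries, of which COL1A1 made up 3.81 to 4.27 and 13.3 to 14.7 TPM. COL1A1 rose by 1.58 ± 0.08 on the log2 scale (adjusted p = 8.69e-06), and ACTA2, not tested, was at 0.400 to 0.598 TPM in control and 0.682 to 0.801 TPM in resistant libraries. Of 7 endothelial markers 5 were below 1 TPM in all libraries, with KDR and EMCN at 0, and they summed to 8.13 to 8.94 and 5.85 to 7.47 TPM. Of 8 immune markers 5 were below 1 TPM in all libraries, with TYROBP at 0, and they summed to 8.80 to 9.16 and 10.3 to 12.4 TPM. CTGF, CYR61 and CCDC80 are also expressed by fibroblasts, and the part of other cell types in their values was not tested.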

How the data were processed

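The authors deposited 1 table of TPM for 51537 genes in 6 libraries, and each column sums to 1000000. Per the labels' protocols, poly(A) RNA was captured from TRIzol extracts and libraries were made with a stranded mRNA kit. HISAT2 is the aligner listed per the submitters' processing notes. The counter, the annotation, the build and the HISAT2 version are not given in the sources consulted. Coordinates are those of GENCODE 29 on GRCh38, in which all 51537 identifiers occur.

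TPM keeps no depth, so reads were rebuilt from TPM and GENCODE 29 union exon lengths. Of 60 values for the 10 genes, 54 came within 0.01 of a whole read; over all values above 0 the share was 67.2% to 67.9%. The totals are estimates, and no interval here covers more than the spread between libraries.

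A gene entered the test when 3 or more libraries reached 1 TPM (16077 genes), and log2(TPM + 1) was fitted on the group with limma 3.58.1 in R 4.3.3 (trend and robust moderation, statmod 1.5.0). Tests were two-sided, and p-values were adjusted by Benjamini-Hochberg over all tested genes. A symbol on 2 rows was taken from the row with that GENCODE name. The replicates of a group differed by 4.05 to 11.9 chi-square units per gene on rebuilt reads, above counting noise, so none was treated as a copy.

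The 10 genes, the lists and the tests were chosen with earlier results of these data known. The text names all 10 genes, the TEAD, coactivator and VGLL list, set paralogues, and up to 4 called genes per other list that reached a mean of 5 TPM in either group, ranked by size of change; 1 gene that this rule names is not reported here. Alternatives were a pseudocount of 0.1, no filter, a filter at 5 TPM, median-ratio scaling, a replicate block, plain moderation and leaving out each library; limma-voom on rebuilt reads was added after seeing the data.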

Additional observations from a re-analysis of the deposited data

How the results depend on the processing

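Of the 10 genes, LATS1 and AMOTL2 kept their call in all 13 alternatives. The number of the 10 genes called, 3, was 6 with limma-voom on rebuilt reads and 2 to 5 with 1 library left out. The TEAD, coactivator and VGLL count, 3, was 1 without trend and robust estimation and 0 to 4 with 1 library left out. The AP-1 count, 3, was 5 with limma-voom and 3 to 5 with 1 library left out. The whole-table count ran from 6247 to 8741. The TEAD1 call was also lost with no low-value filter (adjusted p = 0.0907) and with plain moderation (0.0730), and that of VGLL1 with plain moderation (0.0665). LIMD1, at 0.0121, ran from -0.0109 to 0.0285 with 1 library left out and was negative without control replicate 3 or resistant replicate 2 (-0.00663). The cause of these shifts was not tested.

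Replicate numbers gave no sign of pairs: deviations of same-numbered libraries correlated at -0.06 to -0.0017 across genes, and no library correlated best with its own number. The labels do not say whether libraries were made in pairs, and correlations this small cannot settle it. With the replicate block, 6856 genes were called in place of 7815 and 2 AJUBA family and STRIPAK genes in place of 4, with FGFR1OP2 (adjusted p = 0.0539) and STRN4 (0.0732) no longer passing. The block also left 13 of the Hippo kinases, adaptors and upstream inhibitors called in place of 16. TEAD1 (adjusted p = 0.0997), MAP4K5 (0.0796), STK38L (0.0729), TAOK2 (0.0701) and CRIM1 (0.0668) did not pass with it, and CYR61 did (0.0458).

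CTGF and ANKRD1 rested on 29 to 86 reads per library, which limits their precision.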

Other observations

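The tested genes most like YAP1, by Euclidean distance between centred log2(TPM + 1) values over the 6 libraries and among 11020 genes that averaged 5 TPM or more, were EMP2 (distance 0.0337), SLC33A1 (0.0362) and ACSL1 (0.0379). EMP2, an epithelial membrane protein gene, was at 74.3, 78.7 and 79.6 TPM in control and 74.6, 74.9 and 70.8 TPM in resistant libraries. The genes most like LATS1, the called gene with the lowest log2 change, were TMEM38A (0.0501), an ion channel gene, APPL2 (0.0726), an endosomal adaptor gene, and SHANK2 (0.0747), a scaffold gene. TMEM38A was at 14.3, 16.2 and 16.4 TPM in control and 12.3, 11.2 and 12.3 TPM in resistant libraries. For LATS1, with 6 libraries in 2 groups, likeness is mostly a shared difference between groups. For YAP1 the groups overlapped, and EMP2, SLC33A1 and ACSL1 did not pass in limma (adjusted p of 0.204 to 0.431). Likeness to YAP1 thus also takes in spread within groups.

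The neighbourhoods of 4 other pathway genes are given here, chosen after their values were seen. STK38L (-0.44) and FGFR1OP2 (-0.43), both on chromosome 12, had 15 and 16 neighbours with median log2 changes of -0.43 and -0.44. These genes start within 2 Mb of each other, so each is among the neighbours of the other and they describe 1 region. The median given for STK38L is the value of FGFR1OP2 itself. VGLL1 (-0.16), on the X chromosome, had 15 neighbours with a median of -0.77, of which 12 were called lower. The median over 352 genes of the X chromosome was -0.33. FRMD6 (-0.55) lay on chromosome 14 beside 26 neighbours with a median of 0.30, of which 16 were called higher. The part of position in these values was not tested.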
